A study of Mus musculus with 24 samples.

Results

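The comparison described here is that of Derlin-1 knockout (KO) cerebellum with control cerebellum in mice that received 4-phenylbutyrate (4PBA), on 8 of the 24 microarrays of the study. The 8 arrays were chosen by their titles: 4 carry the words Derlin-1 KO and 4PBA, and 4 carry Derlin-1 control and 4PBA. All mice were C57BL/6. Controls were Derlin-1flox/flox, that is, with the gene flanked by Cre target sites but without Cre. KO mice came from crossing such mice with mice that express Cre recombinase from the nestin promoter, which is active in the progenitors of neurons and of astrocytes and oligodendrocytes but not in those of microglia. Every one of the 8 samples had 200 mg/kg 4PBA by daily injection into the abdomen from postnatal day 14 to day 28, and the cerebellum was taken at day 28. The samples fall into 4 groups of 2 arrays: KO 1 and 2 with controls 1 and 2 on a slide with numbered replicates, and KO a and b with controls a and b on a slide with lettered replicates that was scanned on another day. KO and control were therefore compared within each slide and the 2 differences averaged. A comparison without 4PBA, on the 8 remaining Derlin-1 arrays (vehicle on the numbered slide, untreated on the lettered slide), served as reference.

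Derlin-1 is a membrane protein of the endoplasmic reticulum (ER) and a component of the machinery of ER-associated degradation (ERAD), which pulls misfolded proteins back into the cytosol for the proteasome. When misfolded proteins accumulate, the sensors PERK, IRE1 and ATF6 start the unfolded protein response: PERK signals through the factors ATF4 and CHOP (gene Ddit3), IRE1 through XBP1, and ATF6 through its own cleaved form. 4PBA is used as a chemical chaperone that lowers this load and is also known as an inhibitor of histone deacetylases. The comparison asks which transcripts separate KO from control cerebellum when both received the chaperone.

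A level is the log2 of a probe's intensity minus that of the 75th percentile of its array, and a difference of 1 is 2-fold. A gene is called when its adjusted p, from limma with Benjamini-Hochberg adjustment over all genes tested, is under 0.05. On the 8 arrays 60.3% to 66.8% of spots passed the scanner software's test of being well above background, and 75th percentiles were 890 to 1110 intensity units. Defining transcripts of the cerebellum were well above background on all 8 arrays, among them all 10 listed markers of Purkinje cells and all 10 of granule neurons. The labels do not say that replicates were separate animals, so p-values measure the spread between these samples. Controls occupied the first columns of each slide and KO samples the last, so that position and genotype cannot be told apart.

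The array labelled KO 4PBA b stood apart from the other KO arrays and lay with the controls. The comparison used the 1800 genes called between KO and control without 4PBA (10.6% of 16935 genes tested), a choice that the 8 arrays entered through the residual spread and the filter on dim probes. Over these genes the median deviation from the slide's controls, signed so that the KO direction without 4PBA is positive, was 0.32 on KO 1, 0.33 on KO 2 and 0.37 on KO a. It was 0.0034 on the array labelled KO 4PBA b, where 50.8% of the genes deviated in the KO direction, against 95.6%, 96% and 96.6% on KO 1, KO 2 and KO a. A single control set against the other control of its slide had a median between -0.07 and 0.07. Over 14266 genes well above background on all 24 arrays, the array labelled KO 4PBA b and control 4PBA b were the closest of the 84 pairs of arrays within slides, with a median absolute log2 difference of 0.0634. The next pair had 0.0828, and the median difference between repeated spots within 1 array lay between 0.0276 and 0.0496. The array labelled KO 4PBA b differed from KO a by 0.146 and from control 4PBA a by 0.167. Counts of called genes, many list medians and the leading genes are given with and without this array below; for the other named genes the value given leaves it out, and apart from the 8 genes called with all arrays no gene named here was called between KO and control when it was included. It was left out because of its expression, so counts without it are not independent evidence that the genotypes differ.

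**Figure D1:**
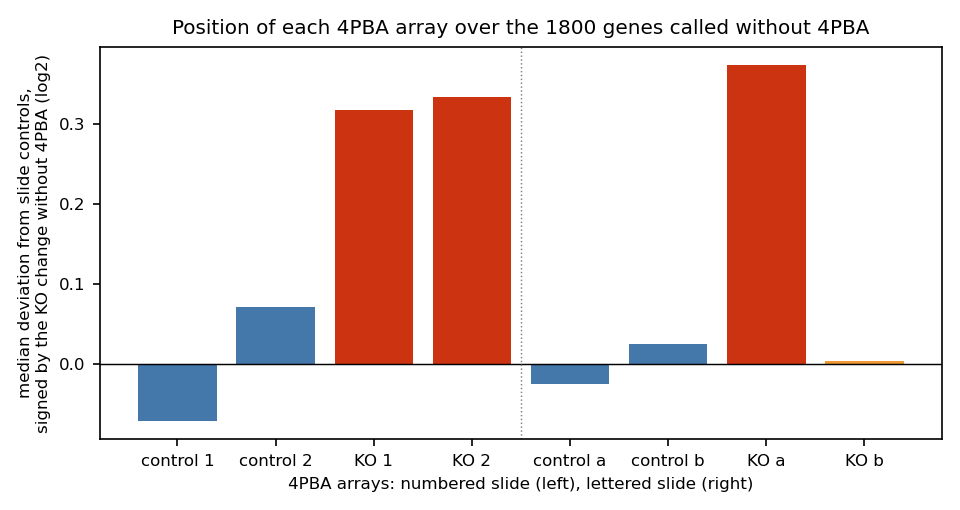
Median deviation of each array with 4PBA from the controls of its slide (log2, bars from 0) over the 1800 genes called without 4PBA, signed by the direction of the KO change there; a control is set against the other control. KO 1, KO 2 and KO a sit between 0.32 and 0.37, while the array labelled KO 4PBA b sits at 0.0034, within the range of the controls.

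The targeted gene did not settle the labels. Derl1 (probe A_51_P504522) had levels of 1.22 and 0.76 in the numbered controls, 0.94 and 0.88 in KO 1 and 2, 1.17 and 0.77 in the lettered controls, 0.64 in KO a and 0.93 on the array labelled KO 4PBA b. KO and control levels overlapped on the numbered slide, and on the lettered slide only KO a lay below both controls. Leaving out the array labelled KO 4PBA b, the KO difference was -0.21 (SE 0.17, adjusted p 0.579), and with it -0.13 (SE 0.15, adjusted p 0.772). The labels do not say which exons are removed, so that a probe outside them checks nothing. Derl2, the close homologue, had levels from 1.72 to 2.13 on the 8 arrays and a difference of -0.02 (adjusted p 0.976) without that array and -0.03 (adjusted p 0.973) with it.

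Derl3, the family member that is itself a target of the unfolded protein response, separated the genotypes. It had -2.70 and -3.14 in the numbered controls against -0.63 and -0.30 in KO 1 and 2, and -2.54 and -2.18 in the lettered controls against 0.17 in KO a. The array labelled KO 4PBA b had -2.27, between the 2 controls of its slide. Derl3 rose by 2.49 (SE 0.26, adjusted p 0.000111) without that array. With it the difference was 1.88 (SE 0.39, adjusted p 0.099).

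With all 8 arrays, 8 of 16934 genes were called (0.0472%), 4 higher and 4 lower in KO, while the unadjusted p of 2166 was under 0.05. The direction of calls turned with the array left out: 4 were higher and 19 lower without numbered control 1, 4 and 23 without control 2, 15 and 4 without KO 1, and 24 and 6 without KO 2. Of the 8, only 1 was well above background on every array: Tox3, which encodes a DNA-binding protein of the HMG-box family. Tox3 had levels of -4.92 and -3.93 in the numbered controls, -3.73 and -3.43 in KO 1 and 2, and -4.86 and -4.87 in the lettered controls. KO a had -3.09 and the array labelled KO 4PBA b -3.25. All 4 KO arrays lay above their slide's controls, by 1.77 on KO a, and Tox3 rose by 1.27 (SE 0.16, adjusted p 0.00582). Without the array labelled KO 4PBA b it rose by 1.31 (SE 0.19, adjusted p 0.00124). In the comparison without 4PBA its difference was 0.31 (adjusted p 0.247). With normexp background correction the Tox3 difference with all arrays was 0.47 (adjusted p 0.0854), and its adjusted p was 0.0546 with only the 16 Derlin-1 arrays in the fit.

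Each of the 7 other genes called with all arrays had a group without any array well above background, so that the folds are bounds, and each stood out on a single slide. All 7 passed the filter on dim probes through 1 group alone, the one where they were high, so that they could enter the test only by differing, and their calls are a description and no support for a KO difference. Gm28729 was at least 4.52-fold and Gm30993 at least 2.57-fold higher in KO on the numbered slide, where controls exceeded KO at least 2.63-fold for Scgb2b24 and at least 2.89-fold for Tdpoz1. On the lettered slide 1700065J11Rik was at least 3.55-fold higher in KO, and 4930452A19Rik at least 3.22-fold and Fzd5, a Wnt receptor, at least 3.16-fold higher in controls. These 3 lettered differences included the array labelled KO 4PBA b: Fzd5 had -4.49 and -4.02 in the lettered controls, -6.87 in KO a and -7.19 on that array. On the numbered slide Fzd5 ranged from -6.11 to -5.32 with KO and control overlapping.

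Leaving out the array labelled KO 4PBA b raised the count to 1047 of 16934 genes (6.18%), with 595 higher (3.51%) and 452 lower (2.67%) in KO, and all 8 genes called with it stayed among them. Of the 1047, 935 were well above background on all 7 arrays. The median size of a called change was 0.59, and 235 genes changed at least 2-fold, 185 upward and 50 downward. Without numbered control 1 in addition the count was 645, and without lettered control a 692; the other 4 single arrays whose removal gave a fit left it within 1.5 times of 1047. The balance of directions was less stable: without lettered control b 484 genes were called higher and 584 lower. Of the genes named below, the calls of A230028O05Rik, Acly, Atf4, Cbln3, Cd70, Cyp51, Grin2c, Hmox1, Kit, Lgi2, Lpl, Pclo, Pmaip1, Psmb8, Slc6a13, Srp54a, Tm7sf2 and Tssk4 were lost when 1 or another single array was left out in addition. Such a loss came without numbered control 1 or KO 2 for 13 genes each, lettered control a for 11, numbered KO 1 for 9, lettered control b for 7 and numbered control 2 for 5, with adjusted p-values from 0.0501 to 0.134. With the spread estimated from the Derlin-1 arrays alone 610 genes were called, 400 higher and 210 lower, and from the 7 arrays alone 120, 91 higher and 29 lower. Each slide by itself, fitted with all arrays, gave 8 genes on the numbered slide (0.0472%, with 1942 at an unadjusted p under 0.05) and 4 on the lettered slide (0.0236%, with 481). The numbered slide's 4 arrays do not include the doubted array, which enters that fit through the residual spread alone; with it left out, the numbered slide gave 293 genes. Genes are not independent replicates; across them the KO differences of the numbered slide and of KO a correlated with r = 0.46, and with r = 0.31 when the array labelled KO 4PBA b was averaged into the lettered slide. In whole cerebellum a difference in the number of cells of a type and a difference in RNA per cell cannot be told apart.

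Among the 12 genes that rose most without the array labelled KO 4PBA b, of those well above background on all 7 arrays, were several known from cellular stress. Gdf15, a stress-induced cytokine, had -3.33 and -4.29 in the numbered controls, 0.02 and 0.24 in KO 1 and 2, -3.86 and -4.66 in the lettered controls, 0.40 in KO a and -4.85 on the array labelled KO 4PBA b. KO 1, KO 2 and KO a were above all controls and that array below all of them. Gdf15 rose by 4.30 (SE 0.29, adjusted p 3.34e-06), and the difference with all arrays was 2.99 (SE 0.74, adjusted p 0.133). Trib3, a pseudokinase that CHOP induces, went from -1.88 and -1.25 to 1.68 and 1.71 on the numbered slide and from -1.86 and -2.03 to 1.05 in KO a, with -2.11 on the doubted array. It rose by 3.13 (SE 0.18, adjusted p 1.26e-06), against 2.34 (adjusted p 0.0892) with all arrays. Cox6a2, the isoform of a cytochrome c oxidase subunit known from heart and skeletal muscle, had -1.21, -2.08, -0.41 and -0.99 in the 4 controls, 2.21, 2.42 and 2.71 in KO 1, 2 and a, and -0.95 on the array labelled KO 4PBA b. It rose by 3.69 (SE 0.25, adjusted p 3.49e-06), while the 12 other respiratory chain genes listed had differences from -0.34 to -0.09 and none was called.

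Slc7a3, a carrier of cationic amino acids, had -0.15, -0.62, -0.24 and -0.72 in the controls and 2.68, 2.93 and 2.53 in KO 1, 2 and a, and rose by 3.10 (SE 0.45, adjusted p 0.00129). It had -0.58 on the array labelled KO 4PBA b and, including it, a difference of 2.32 (adjusted p 0.129). Derl3 and Cxcl10, the latter described with the immune genes, also belong to the 12, and the others were 9330179D12Rik by 2.28, Atf3 by 2.27, Zcchc12 by 2.12, Chac1 by 2.08, Eif4ebp1 by 2.03, with Lpl, lipoprotein lipase, as the last of the 12 (adjusted p 0.0152). None of these 12 genes was called with all arrays, and their adjusted p lay between 0.0892 and 0.229. Fgf21, a hormone of the stress response, was dim in all controls, from -8.34 to -7.59, but had -1.41, -1.30 and -1.46 in KO 1, 2 and a, and -8.14 on the array labelled KO 4PBA b. It passed the filter on dim probes through KO groups alone, so that it could enter the test only by being high in KO. Its call is a description and no support for a KO difference. On the numbered slide it was at least 17.5-fold higher in KO (adjusted p 1.26e-06 for both slides without the doubted array, 0.0909 with it).

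**Figure D2:**
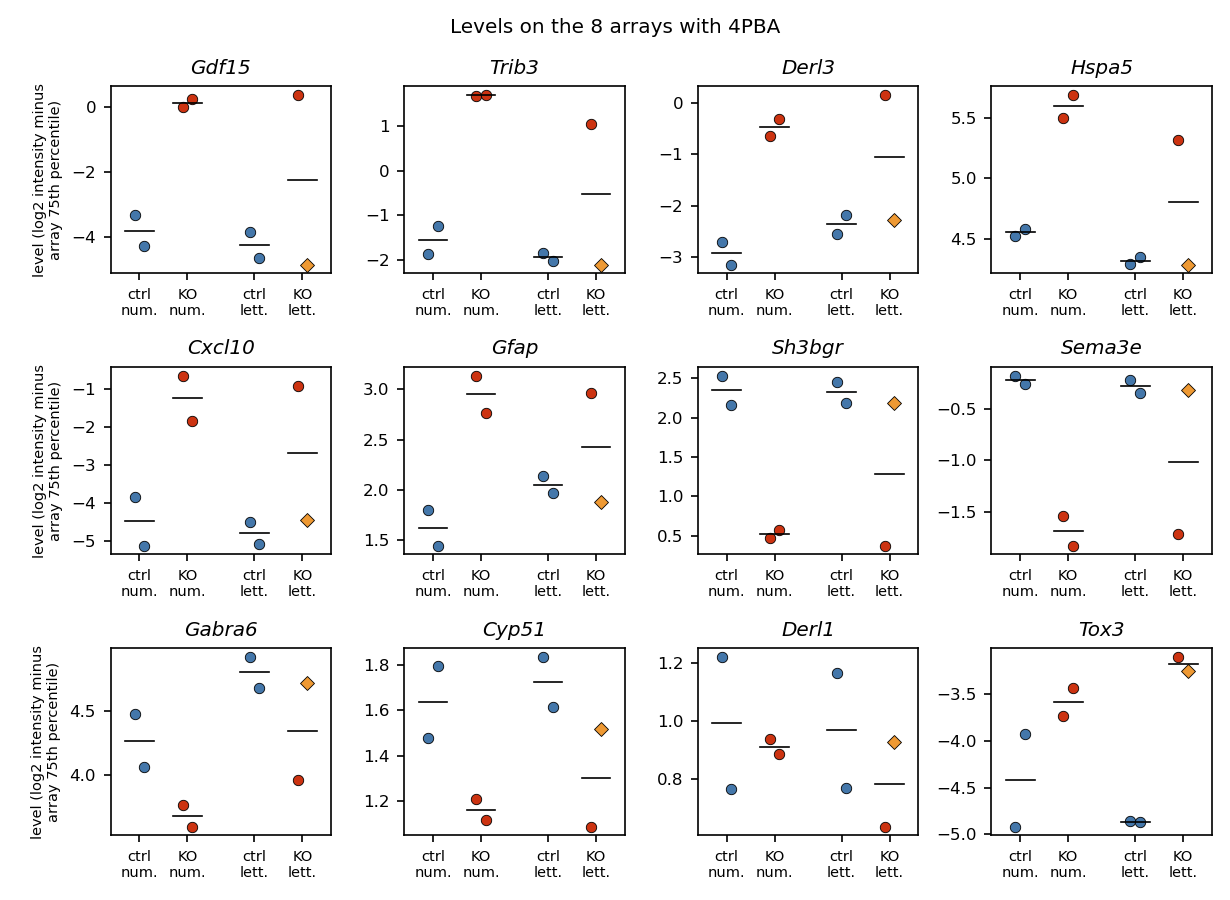
Levels of 12 genes on the 8 arrays with 4PBA (log2 intensity minus the array's 75th percentile; blue, controls; red, KO; orange diamond, the array labelled KO 4PBA b; horizontal lines, means of the 2 arrays of a group). The array labelled KO 4PBA b lies near the lettered controls for Gdf15 (-4.85), Trib3 (-2.11) and Derl3 (-2.27), but beside KO a for Tox3 (-3.25 and -3.09).

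Most genes of the ATF4 and CHOP arm rose without the array labelled KO 4PBA b: 14 of 17 were called higher and none lower, with a median difference of 1.24 against -0.01 over all genes. Ddit3, which encodes CHOP, had -0.61 and -0.65 in the numbered controls, 0.57 and 0.72 in KO 1 and 2, -0.07 and -0.19 in the lettered controls, 1.16 in KO a and -0.31 on the array labelled KO 4PBA b. It rose by 1.29 (SE 0.08, adjusted p 1.43e-06). Cebpb rose by 1.39, Atf5 by 1.24 and Atf4 itself by 0.49 (SE 0.11, adjusted p 0.0199). The list's median deviation was 1.22 on KO 1, 1.34 on KO 2 and 1.20 on KO a, and -0.16 on the doubted array. Its median with all arrays was 0.92, 16 of 17 differences were above 0, and no member was called (smallest adjusted p 0.0892). The 14 genes called without the doubted array include Fgf21, which passed the filter on dim probes through KO groups alone. Beside the counts of list members here and below stand the shares of all genes called without that array, 3.51% higher and 2.67% lower.

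Most chaperones and folding enzymes of the ER rose as well, with 17 of 20 called higher, none lower and a median of 0.62. Hspa5, the central ER chaperone BiP, had 4.53 and 4.58 in the numbered controls, 5.50 and 5.69 in KO 1 and 2, 4.30 and 4.35 in the lettered controls, 5.32 in KO a and 4.29 on the array labelled KO 4PBA b. The groups did not overlap on either slide once that array was set aside, and Hspa5 rose by 1.02 (SE 0.14, adjusted p 0.000894). The largest rises were those of Sdf2l1 (1.58), Creld2 (1.23) and Manf (1.07), all ER-resident or secreted folding factors, with Hyou1 at 0.90. The 3 members not called were Fkbp2, Ppib and Ero1a, the last at -0.04 (adjusted p 0.871). With all arrays Hspa5 had 0.76 (SE 0.18, adjusted p 0.127), the median was 0.47 and no member was called (smallest adjusted p 0.127). Array by array the list's median deviation was 0.56, 0.70 and 0.68 on KO 1, 2 and a and -0.05 on the doubted array.

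Of 11 sensors of the unfolded protein response and their factors only Wfs1, a regulator of ATF6, was called, higher by 0.37 (adjusted p 0.0114), and the median was 0.24. Xbp1 had 4.40 and 4.61 in the numbered controls against 5.12 and 5.10 in KO 1 and 2, and 4.31 and 4.34 in the lettered controls against 4.66 in KO a, with 4.22 on the doubted array. KO 1, 2 and a exceeded their controls, but the difference of 0.47 (SE 0.14) did not pass (adjusted p 0.0628). Atf6 had 0.28 (adjusted p 0.0937) and Eif2ak3, which encodes PERK, 0.24 (adjusted p 0.128). Among 26 secretory pathway genes known as targets of XBP1 or ATF6, which act in protein entry into the ER and export from it, 7 were called higher, led by the coat protein gene Sec24d (0.84), and 1 lower, Srp54a of the signal recognition particle (-0.71, adjusted p 0.0321), with a median of 0.23. Including the doubted array, both medians were 0.14 and no member was called.

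Of 24 ERAD components 3 were called higher and 1 lower, beside 3.51% of all genes called higher and 2.67% lower, and the median was 0.02. Besides Derl3 the risers were Herpud1, a scaffold of the ERAD ligase complex that is induced by ER stress, by 1.01 (SE 0.08, adjusted p 1.91e-05), and Edem1, a lectin-like mannosidase that directs glycoproteins to degradation, by 0.67. Herpud1 had 2.84 and 2.66 in the numbered controls, 3.78 and 3.76 in KO 1 and 2, 2.53 and 2.37 in the lettered controls, 3.44 in KO a and 2.38 on the doubted array. Vcp, the ATPase that pulls substrates out of the membrane, fell by 0.36 on the log2 scale (SE 0.06, adjusted p 0.00446). Its levels were 5.54 and 5.53 against 5.06 and 5.17 on the numbered slide, and 4.83 and 4.83 against 4.54 in KO a and 4.91 on the array labelled KO 4PBA b. Including it, the adjusted p was 0.099 for Herpud1, 0.127 for Edem1 and 0.178 for Vcp.

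Promoters of whole gene lists, with members that rose and members that did not, were searched for the sequence motifs through which these arms are known to act, in RefSeq promoter sequences of 300 bases (250 before the transcription start and 50 after, build GRCm38.p6) on both strands. The ER stress element of ATF6 and XBP1, CCAAT and CCACG with 9 bases of any kind between them, was in 8 of 20 promoters of the chaperone list (40%) and in 0.119% of all 32851 promoters. The list has promoters here for 18 of its 20 genes. Neither this element nor its shorter form was in any of 22 promoters of the XBP1 and ATF6 secretory list. All 8 genes that held the element, Calr, Canx, Creld2, Dnajc3, Ero1b, Hsp90b1, Hspa5 and Pdia6, were among the 17 called. With 17 of 20 chaperones called, the calls do not set them apart. The shorter form, ATTGG and CCACG with 1 base between them (in 0.0365% of all promoters) was in that of Dnajb11 among the chaperones and that of Herpud1 among the ERAD genes, where Derl3 and Syvn1 held the long form. The ATF4 element, TGATGNAAN, was in 6 of 19 promoters of the ATF4 and CHOP list (31.6%), against 3.95% of all promoters: those of Atf3, Chac1, Fgf21, Nupr1, Trib3 and Vldlr, all called but Vldlr. It was also in 5 of 13 promoters of the cytosolic aminoacyl-tRNA synthetases (38.5%), those of Aars, Gars, Iars, Tars and Yars, all called higher, but in 2 of 11 promoters of serine, asparagine, proline and one-carbon synthesis and 2 of 9 of the amino acid transporters, with 1 called gene in each. The sterol regulatory element was in none of 20 promoters of cholesterol synthesis genes. A match of letters is a description and no sign of binding, and the ERAD, synthetase, transporter and serine lists were added to the search after their values were seen. The 5 stretches that follow are the 250 bases before the start of genes described here, in the direction of transcription, from RefSeq; capitals mark the ER stress element in Hspa5, Creld2 and Derl3 (on the opposite strand in the last 2) and the ATF4 element, on the opposite strand, in Atf3 and Chac1.
Hspa5 promoter, chr2:34771840-34772089, plus strand: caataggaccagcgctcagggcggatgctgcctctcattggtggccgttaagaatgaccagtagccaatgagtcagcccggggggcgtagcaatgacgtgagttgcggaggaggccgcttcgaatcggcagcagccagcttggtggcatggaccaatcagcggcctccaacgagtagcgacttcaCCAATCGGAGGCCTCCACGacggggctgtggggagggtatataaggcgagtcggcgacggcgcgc
Creld2 promoter, chr15:88819396-88819645, plus strand: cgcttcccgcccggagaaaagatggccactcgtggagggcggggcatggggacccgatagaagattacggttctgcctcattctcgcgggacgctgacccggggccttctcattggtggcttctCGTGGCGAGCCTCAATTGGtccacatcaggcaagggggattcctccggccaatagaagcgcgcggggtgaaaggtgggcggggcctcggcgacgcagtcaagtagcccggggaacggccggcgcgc
Derl3 promoter, chr10:75893148-75893397, plus strand: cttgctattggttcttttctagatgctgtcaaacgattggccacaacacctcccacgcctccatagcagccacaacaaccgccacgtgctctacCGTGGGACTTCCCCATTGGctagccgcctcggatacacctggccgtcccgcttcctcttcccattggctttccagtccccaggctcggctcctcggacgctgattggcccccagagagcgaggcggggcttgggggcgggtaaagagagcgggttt
Atf3 promoter, chr1:191183334-191183583, minus strand: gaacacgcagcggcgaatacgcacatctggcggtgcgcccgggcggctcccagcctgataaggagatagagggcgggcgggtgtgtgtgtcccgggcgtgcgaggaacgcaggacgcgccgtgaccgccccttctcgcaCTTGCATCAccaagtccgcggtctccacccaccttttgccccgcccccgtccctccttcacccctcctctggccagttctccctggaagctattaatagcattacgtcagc
Chac1 promoter, chr2:119350992-119351241, plus strand: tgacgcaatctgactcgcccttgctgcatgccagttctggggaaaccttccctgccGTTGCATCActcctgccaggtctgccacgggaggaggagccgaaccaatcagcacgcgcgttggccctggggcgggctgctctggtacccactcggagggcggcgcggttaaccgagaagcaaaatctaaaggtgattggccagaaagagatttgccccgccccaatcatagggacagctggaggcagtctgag
Counted from the transcription start, the ER stress element begins at -65 in Hspa5, at -126 in Creld2 and at -156 in Derl3, and the ATF4 element at -111 in Atf3 and at -194 in Chac1. The core element of the XBP1-bound type, TGACGTGG, was in no chaperone promoter and in 2 of 22 promoters of the secretory list, those of Sec24d and Kdelr3 (0.676% of all promoters). Among the ERAD genes it was in the promoters of Ube2j1 and of Vcp, which fell.

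Genes that supply amino acids, another known output of ATF4, were called higher in part. Of 11 genes of serine, asparagine, proline and one-carbon synthesis 7 were called higher and none lower, with a median of 0.59. Mthfd2, a mitochondrial folate enzyme, had -1.37 and -1.46 in the numbered controls, 0.18 and 0.18 in KO 1 and 2, -1.93 and -2.03 in the lettered controls, -0.50 in KO a and -2.09 on the array labelled KO 4PBA b. It rose by 1.54 (SE 0.22, adjusted p 0.00106), Aldh1l2 by 1.46, Shmt2 by 1.15 and Asns, asparagine synthetase, by 0.84. Of 20 cytosolic aminoacyl-tRNA synthetases, which load tRNAs, 11 were called higher and none lower, with a median of 0.37 and the largest rise in Cars (0.91). Of 10 amino acid transporters 5 were called higher, among them Slc7a1 by 1.13, and 1 lower, Slc7a5, a carrier of large neutral amino acids, by 0.50 on the log2 scale (adjusted p 0.0109). Including the doubted array, the 3 medians were 0.43, 0.27 and 0.25, and no member was called.

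Cholesterol synthesis genes, driven by the factor SREBP-2, were mostly below control: 19 of 23 differences were negative, with a median of -0.24, but only 3 were called, all lower, against 15 called lower among the same 23 without 4PBA, where the median was -0.41. Over all genes 6.18% were called under 4PBA on 7 arrays and 10.6% without 4PBA on 8. The counts of 3 and 15 can therefore not be set directly against each other. Cyp51, lanosterol demethylase, had 1.48 and 1.80 in the numbered controls, 1.21 and 1.11 in KO 1 and 2, 1.84 and 1.62 in the lettered controls and 1.09 in KO a. The array labelled KO 4PBA b had 1.52, below both controls of its slide. Cyp51 fell by 0.56 on the log2 scale (SE 0.13, adjusted p 0.026) and Tm7sf2, a sterol reductase, by 0.44, whereas Hmgcs1, an early enzyme of the pathway, had -0.35 (adjusted p 0.207). The difference between the KO effects with and without 4PBA was above 0 in 21 of the 23 genes, with a median of 0.19, but no gene of the list passed the test of that difference. The KO deviation of the list was -0.09 on KO 1, -0.25 on KO 2, -0.29 on KO a and -0.10 on the array labelled KO 4PBA b, so that here KO 1 and that array had about the same value. Its inclusion gave a median of -0.19, and none was called (smallest adjusted p 0.182). Of 12 fatty acid synthesis genes Scd1, a desaturase, and Acly were called lower, by 0.48 and 0.30 on the log2 scale, with a median of -0.04 for the list with and without that array, and of 0.0149 without it after quantile normalization.

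**Figure D3:**
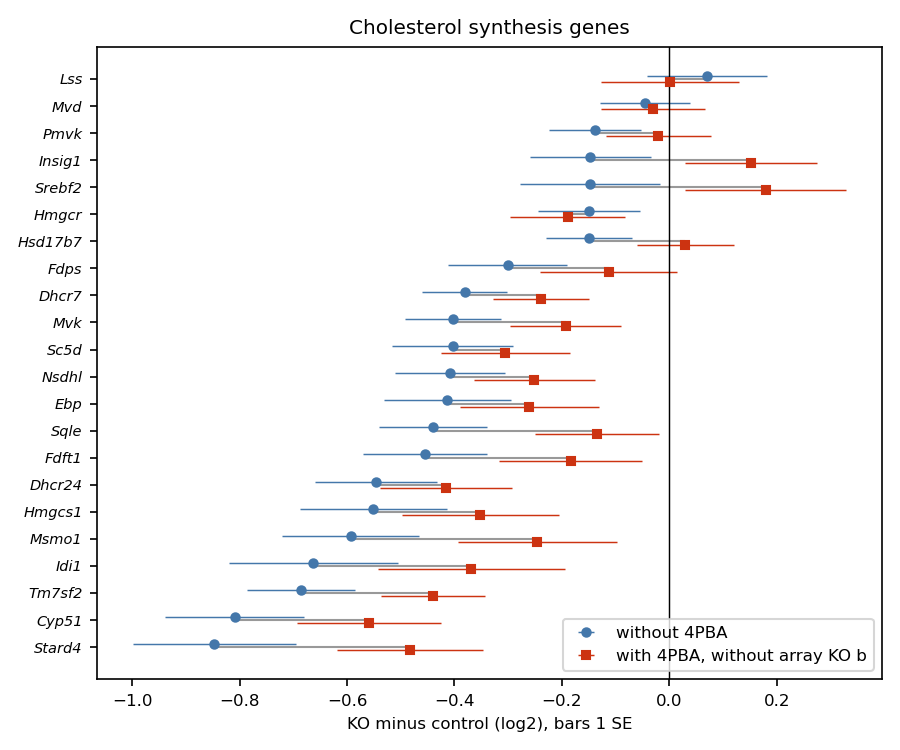
KO minus control differences (log2) of 22 of the 23 cholesterol synthesis genes tested, without 4PBA (blue circles) and with 4PBA leaving out the array labelled KO 4PBA b (red squares); horizontal bars are 1 SE from limma and grey lines join the values of a gene. The red value lies to the right of the blue in 20 of the 22 genes drawn.

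Of 10 homeostatic genes of microglia, the macrophages of the brain, 6 were called higher in KO without the array labelled KO 4PBA b and none lower (median 0.65): Aif1 rose by 1.37 (SE 0.12, adjusted p 4.12e-05) and Cx3cr1, a chemokine receptor, by 0.83, while P2ry12, a purine receptor of resting microglia, had -0.18 (adjusted p 0.729). P2ry12 was uneven in the numbered controls, with -0.09 and -1.36, against -1.39 and -1.38 in KO 1 and 2, and its difference without numbered control 1 was 0.14. Of 15 genes of disease-associated microglia 8 were called higher and none lower, with a median of 1.17. Trem2, a lipid receptor of these cells, had -0.12 and 0.01 in the numbered controls, 1.74 and 1.34 in KO 1 and 2, 0.35 and -0.18 in the lettered controls, 1.58 in KO a and -0.26 on the array labelled KO 4PBA b. It rose by 1.54 (SE 0.15, adjusted p 6.52e-05) and its adaptor Tyrobp by 1.41. Itgax, dim in the numbered controls, was at least 8.45-fold higher in KO on that slide, and Cst7 had -1.27, -2.35 and -2.22 in KO 1, 2 and a against -6.69 to -5.08 in controls. Itgax, Cst7 and Fgf21 passed the filter on dim probes through KO groups alone, so that they could enter the test only by being high in KO. Their differences are a description and no support for a KO difference. The 15 genes of the list and its median include Itgax and Cst7. Both lists had smaller medians with all arrays, 0.43 and 0.96, and no member was called.

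Complement genes, which tag debris and synapses, were called higher in 6 of 11 cases, with a median of 0.72, including C4b by 1.87 and C1qa by 1.39. Of 11 chemokines and cytokines 7 were called higher, with a median of 1.57. Cxcl10, a chemokine induced by interferon, had -3.84 and -5.11 in the numbered controls, -0.64 and -1.85 in KO 1 and 2, -4.51 and -5.07 in the lettered controls, -0.91 in KO a and -4.44 on the array labelled KO 4PBA b, and rose by 3.56 (SE 0.52, adjusted p 0.00129). Ccl2 rose by 2.05, Ccl12 by 1.86 and Ccl5 by 1.57, and Ccl3, dim in the lettered controls, had -3.48 in KO a and -5.67 on the array labelled KO 4PBA b, whose mean was at least 2.42-fold above them. Of 15 interferon-stimulated genes 14 were called higher, with a median of 1.21, among them Usp18 by 1.77, Ifit1 by 1.61 and Isg15, a ubiquitin-like modifier, by 1.21 (SE 0.18, adjusted p 0.00139). Here the KO arrays differed among themselves: the list's median deviation was 0.91 on KO 1, 0.50 on KO 2 and 1.75 on KO a, and 0.18 on the array labelled KO 4PBA b. With all arrays the medians of these 3 lists were 0.47, 1.12 and 0.85, and no member was called.

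Isg15 had 0.02 and 0.49 in the numbered controls, 1.19 and 0.80 in KO 1 and 2, -0.21 and -0.31 in the lettered controls, 1.42 in KO a and -0.03 on the array labelled KO 4PBA b. The core of the interferon response element, TTTC repeated after 2 bases of any kind, was in 7 of 12 promoters of the interferon list (58.3%) and in 3.44% of all promoters. The Isg15 promoter is shown because it holds 3 overlapping copies of the core, on the opposite strand and in capitals, that begin at -78, -72 and -66 from the transcription start (build GRCm38.p6, RefSeq).
Isg15 promoter, chr4:156200819-156201068, minus strand: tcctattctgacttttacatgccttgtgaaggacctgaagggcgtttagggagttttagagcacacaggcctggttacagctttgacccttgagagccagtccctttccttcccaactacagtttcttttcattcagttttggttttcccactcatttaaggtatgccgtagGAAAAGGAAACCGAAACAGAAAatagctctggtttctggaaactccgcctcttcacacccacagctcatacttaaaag
The 6 other genes with the core were Bst2, Ifit1, Ifit3, Ifitm3, Irgm1 and Rsad2, and all 7 were called higher. With 14 of the 15 genes of the list called higher, the calls do not set the genes with the core apart.

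Antigen presentation genes were called higher in 6 of 11 cases (median 0.63), with Psmb8 of the immunoproteasome at 0.99 and Cd74 at 0.90. Of 12 genes of reactive astrocytes 4 were called higher (median 0.56). Gfap, the astrocyte filament protein, had 1.80 and 1.45 in the numbered controls, 3.14 and 2.76 in KO 1 and 2, 2.14 and 1.97 in the lettered controls, 2.96 in KO a and 1.88 on the array labelled KO 4PBA b, and rose by 1.12 (SE 0.13, adjusted p 0.000222). Serpina3n rose by 1.58 and Timp1 by 0.65, while none of 10 markers of Bergmann glia and resting astrocytes was called (median -0.10). Including the doubted array, the medians of antigen presentation and reactive astrocytes were 0.51 and 0.43 with no call.

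Markers of other cells that the dissection can hold were uneven between arrays. The mean level of the 8 choroid plexus and ependyma markers was 1.43 and -0.53 in the numbered controls, 1.60 and 1.46 in KO 1 and 2, and 0.30 to 0.66 on the 4 lettered arrays, all 8 well above background on every array. On that slide only control 2 was low. The KO difference had a median of 1.25 on the numbered slide and -0.43 in KO a, and none was called. The 5 blood markers had mean levels of 1.14 and 2.87 in the numbered controls, 2.24 and 3.57 in KO 1 and 2, and 1.89 to 2.07 on the lettered slide, also without a call. Of 6 meningeal markers Slc6a13 (0.63) and Col1a2 (0.39) were called higher, and the list's median deviation was 0.46 on KO 1, 0.29 on KO 2, 0.28 on KO a and -0.38 on the array labelled KO 4PBA b. With that array the medians were 0.39 for choroid plexus, 0.48 for blood and 0.19 for meninges. The mean level of the microglia markers was 0.33 and 0.37 in the numbered controls against 0.80 and 0.74 in KO 1 and 2, and 0.26 and 0.03 in the lettered controls against 0.72 in KO a and 0.06 on the array labelled KO 4PBA b. What part these cell types have in the immune differences was not tested.

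**Figure D4:**
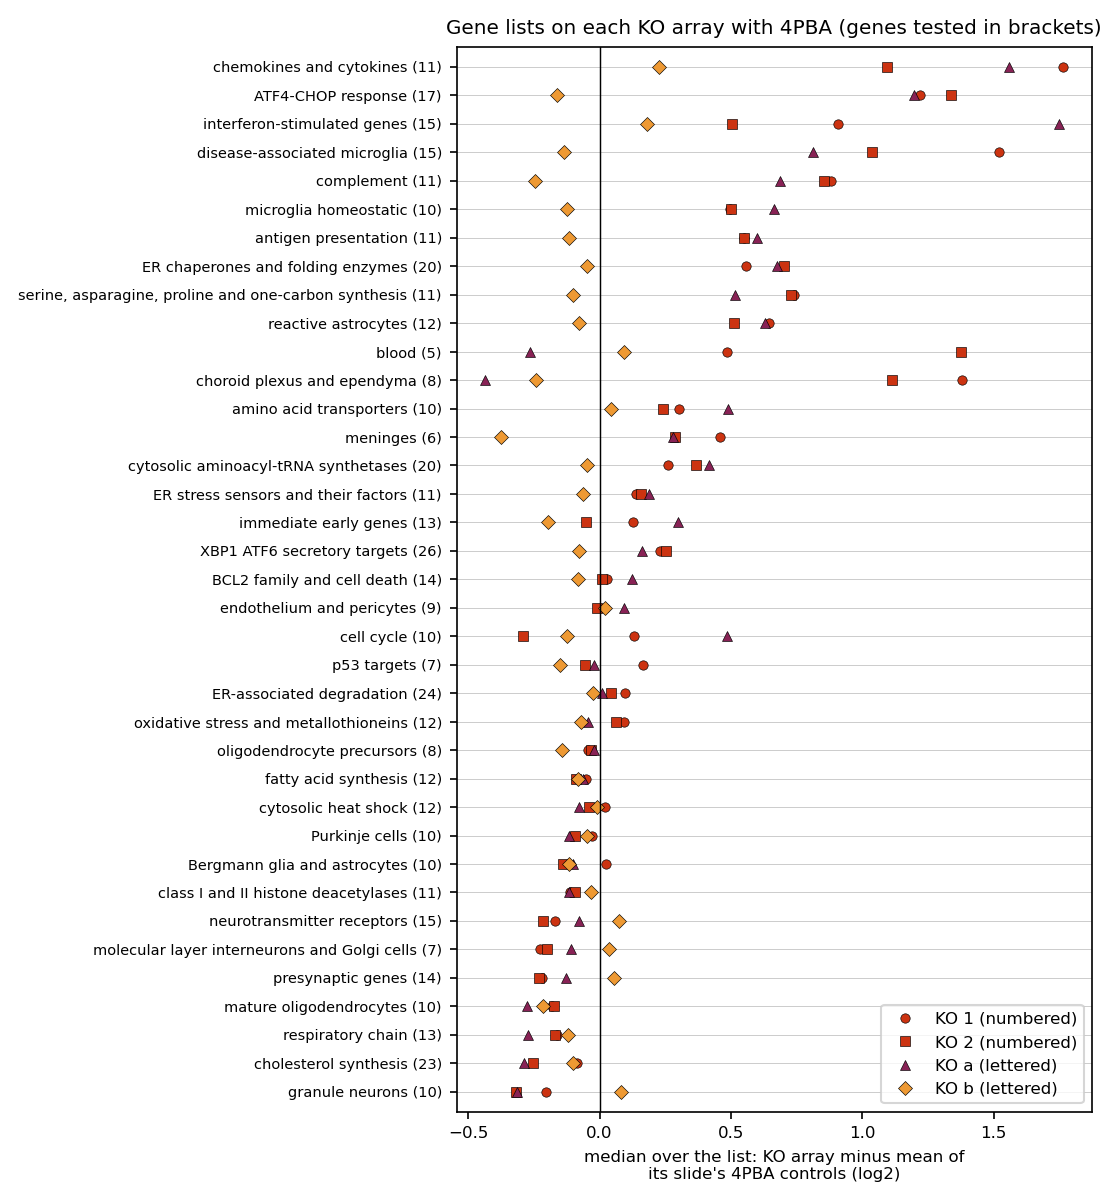
Median deviation (log2) of 37 gene lists on each KO array with 4PBA from the mean of its slide's controls with 4PBA; the number of genes tested stands in brackets. KO 1, KO 2 and KO a lie together on the right for the ATF4 and CHOP list (1.20 to 1.34) with the array labelled KO 4PBA b at -0.16, while choroid plexus markers are at 1.38 and 1.11 on KO 1 and KO 2 and at -0.43 on KO a.

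Among genes well above background on all 7 arrays, the largest falls without the array labelled KO 4PBA b were those of Sh3bgr (-1.88) and Pappa, a protease that releases insulin-like growth factor (-1.87). Sh3bgr had 2.53 and 2.16 in the numbered controls, 0.47 and 0.57 in KO 1 and 2, 2.46 and 2.18 in the lettered controls, 0.38 in KO a and 2.18 on the doubted array (SE 0.15, adjusted p 1.44e-05). Pappa was less even, with -0.87 and -2.39 in the numbered controls, -2.80 and -2.98 in KO 1 and 2, -0.92 and -0.25 in the lettered controls and -3.07 in KO a. The next were Stap2 (-1.62), Myo15 (-1.57), Sema3e, a secreted guidance cue (-1.45, adjusted p 1.44e-05), Scx (-1.28), Car9, a carbonic anhydrase (-1.27), 4930447F24Rik (-1.25), Cabp2 (-1.24), Mmp17 (-1.22), Cd70 (-1.18) and A230028O05Rik (-1.18). Cd70 was called in 8 and A230028O05Rik in 11 of 14 alternative settings, and normexp background correction gave -0.62 for 4930447F24Rik, -0.74 for A230028O05Rik and -1.01 for Myo15. With all arrays these 12 genes had adjusted p-values between 0.0892 and 0.268, and none was called.

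Granule neurons, the most numerous cells of the cerebellum, had 4 of 10 markers called lower, none higher, and a median of -0.29. Gabra6, a GABA receptor subunit of these cells, had 4.48 and 4.06 in the numbered controls, 3.77 and 3.60 in KO 1 and 2, 4.93 and 4.68 in the lettered controls, 3.96 in KO a and 4.72 on the array labelled KO 4PBA b. It fell by 0.72 on the log2 scale (SE 0.12, adjusted p 0.00258), Neurod1 by 0.47, Cbln3 by 0.36 and Grin2c by 0.32. None of the 10 Purkinje cell markers was called (median -0.09, and 0.0428 after quantile normalization), and none of 10 mature oligodendrocyte markers, whose median of -0.21 included -0.48 for Mbp (adjusted p 0.136); on the array labelled KO 4PBA b the oligodendrocyte median was also -0.21. Of 7 interneuron and Golgi cell markers Kit (-0.40) and Sorcs3 (-0.64) were called lower and Lgi2 (0.38) higher. Receptors for glutamate and GABA had 3 of 15 called lower, Gabrd with -0.34 besides Gabra6 and Grin2c, and presynaptic genes 2 of 14, Syt2 (-0.51) and Pclo (-0.40). With all arrays the medians were -0.18 for granule neurons, -0.22 for oligodendrocytes, -0.16 for interneurons, -0.09 for receptors and -0.12 for presynaptic genes, with no call. Over all genes 2.67% were called lower and 3.51% higher without the array labelled KO 4PBA b.

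Calls in further lists stand beside 3.51% of all genes called higher and 2.67% lower without the array labelled KO 4PBA b. Of 14 cell death genes of the BCL2 family and related factors Hrk (1.14) and Pmaip1 (0.78), which encode BH3-only proteins, were called higher, and of 7 p53 targets Cdkn1a (0.82). Of 12 oxidative stress genes Hmox1 (0.57) and the cystine carrier Slc7a11 were called higher, and of 10 cell cycle genes Ccnd2 (1.17). The cell cycle median was 0.08 and the arrays were uneven, with median deviations of 0.13 on KO 1, -0.29 on KO 2, 0.48 on KO a and -0.12 on the array labelled KO 4PBA b. None of 11 class I and II histone deacetylases (median -0.11), none of 12 cytosolic heat shock genes (median -0.07) and none of 8 oligodendrocyte precursor or 9 endothelial and pericyte markers was called. Of 13 immediate early genes Fosb was called higher by 1.22 (SE 0.23, adjusted p 0.00699) with 0.08 without 4PBA, and Dusp1 had -0.92 (adjusted p 0.218). The immediate early median was 0.24, with deviations of 0.13, -0.05 and 0.30 on KO 1, 2 and a and -0.20 on the doubted array. Including the array labelled KO 4PBA b, Hrk had 0.79 (adjusted p 0.191), Ccnd2 0.85 (adjusted p 0.19) and Fosb 0.87 (adjusted p 0.214), and no member of these lists was called.

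The KO differences with and without 4PBA were set side by side. The 2 comparisons share no array, but each fit takes a gene's spread from the arrays of both. Calls shared between them are therefore not from independent tests. Without the array labelled KO 4PBA b, 758 of the 1047 genes called under 4PBA were also called without 4PBA, which is 72.4% of the former and 42.1% of the 1800 latter, and 1029 of the 1047 had the same direction. Over the 1800 genes 1773 kept the direction, with a median change in it of 0.35 under 4PBA against 0.48 without, and 0.26 when the doubted array was included. The smaller median under 4PBA is a description, since those genes were chosen for passing the test without 4PBA. Across genes the 2 differences correlated with r = 0.72, or 0.64 with all arrays. The array labelled KO 4PBA b was left out because its expression lay with the controls, also over these 1800 genes. The shared calls, the shared directions and r without it therefore follow in part from that choice. List medians under 4PBA and without it were 1.24 and 1.31 for the ATF4 and CHOP list, 0.62 and 0.77 for ER chaperones, 0.24 and 0.30 for the sensors, 1.17 and 1.21 for disease-associated microglia, 1.21 and 1.16 for interferon-stimulated genes, and -0.29 and -0.30 for granule neurons. Of the 37 lists, those with medians over 0.2 apart were complement (0.72 and 1.25), chemokines and cytokines (1.57 and 1.93), reactive astrocytes (0.56 and 0.81), oxidative stress genes (-0.0034 and 0.23), immediate early genes (0.24 and -0.24), choroid plexus (0.42 and -0.16) and blood (0.49 and -0.19). Taken gene by gene, the median difference of effects was -0.09 for complement, as for disease-associated microglia, -0.03 for chemokines and cytokines, -0.14 for reactive astrocytes and for oxidative stress genes, 0.39 for immediate early genes, 0.56 for choroid plexus and 0.52 for blood, so that for complement and chemokines it was far smaller than the gap between the medians. These list differences were not tested.

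**Figure D5:**
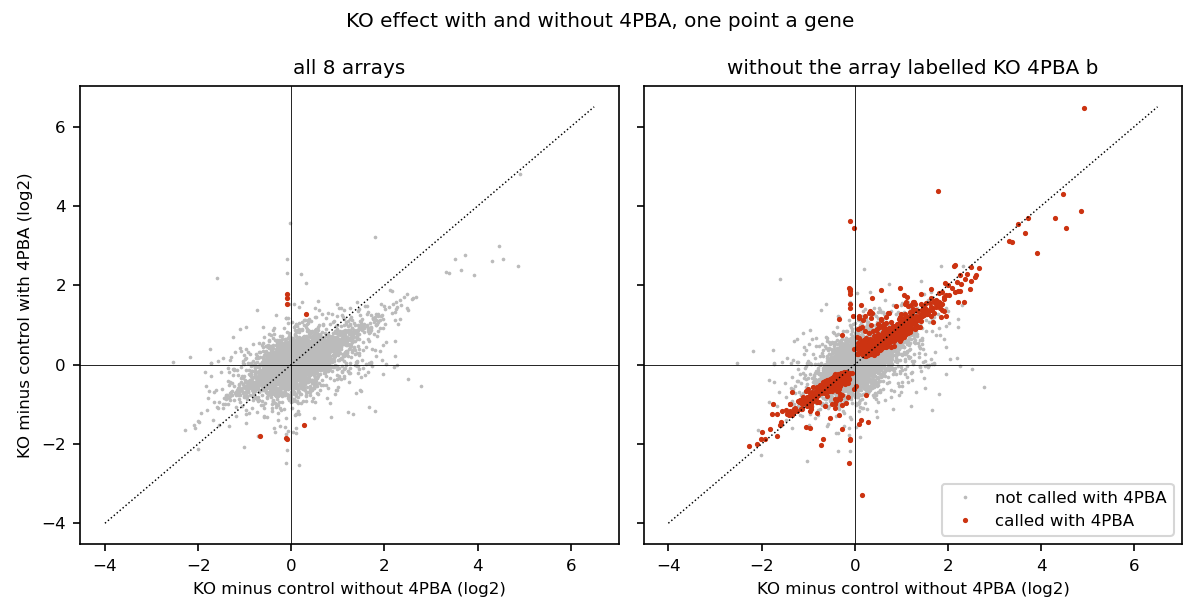
KO minus control difference (log2) of each gene without 4PBA (horizontal) and with 4PBA (vertical), with all arrays (left) and without the array labelled KO 4PBA b (right); red points are the 8 and 1047 genes called with 4PBA and the dotted line marks equal differences. Of the 1047 red points on the right, 1029 have the same sign on both axes, and others form a column near 0 on the horizontal axis; r = 0.72 over all genes.

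The difference between the 2 KO effects was tested directly. With all arrays it was called for 2 of 16934 genes (0.0118%, with 452 at an unadjusted p under 0.05), Gm28729 and Olfr769, and without the array labelled KO 4PBA b for 5 (0.0295%, with 319), which added Obox5, Gm29999 and Cnih3. Gm28729 and Obox5 passed the filter on dim probes through numbered KO with 4PBA alone, where they were high, and Gm29999 through 1 group of another slide. Olfr769 was well above background on none of the 8 arrays and passed through the numbered control with vehicle alone, with a mean of -4.50 there against -8.18 to -7.25 in the other 7 Derlin-1 groups. The differences of Gm28729, Obox5 and Olfr769 follow in part from the filter and support nothing. Gm29999 was well above background on only 1 of the 8 arrays, so that its difference is no measured fold. Only Cnih3, an auxiliary subunit of AMPA receptors, was well above background on all 8 arrays. It had -3.13 and -2.99 in the numbered controls, -3.57 and -3.79 in KO 1 and 2, -2.76 and -3.11 in the lettered controls, -2.20 in KO a and -2.85 on the array labelled KO 4PBA b. KO lay below control on the numbered slide and above it in KO a, so that the averaged difference under 4PBA was 0.06 (adjusted p 0.888), against -1.25 (adjusted p 0.00203) without 4PBA. The difference of effects was 1.31 (adjusted p 0.0355). In the fit without the doubted array, no gene was called for this difference with normexp background correction, with the replicate block, or when lettered untreated control a or lettered untreated KO a was left out. No gene of the 37 lists passed this test.

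The numbered and lettered KO effects differed in 6 of 16934 genes without the doubted array (0.0354%, with 334 at an unadjusted p under 0.05): Gm28729, 4930452A19Rik, Scgb2b24, Tssk4, Gm29999 and Tdpoz1. In each of them at least 1 array was not well above background, and Gm28729, 4930452A19Rik, Scgb2b24 and Tdpoz1 passed the filter only through the 1 group of 1 slide where they were high, so that a difference between slides was built in for them. Tssk4, a testis kinase, had -3.39 and -4.47 in the numbered controls, -5.10 and -5.14 in KO 1 and 2, -4.94 and -4.90 in the lettered controls, -1.38 in KO a and -5.23 on the array labelled KO 4PBA b. The high level was on KO a alone. Without the doubted array KO a is the only lettered KO sample, and the spread assumed for it comes from the other groups.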

How the data were processed

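Total RNA of mouse cerebellum was hybridised to one-colour Agilent arrays (Cy3), 8 arrays on each of 3 slides, per the labels' protocols and the file headers. The deposited scanner files hold processed intensity per spot, which the authors obtained with Feature Extraction 10.7.1.1 (version per the file headers) after its background subtraction. The deposited series table held the same values (largest log2 difference 1.74e-06 over 56305 probes).

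From these, log2 intensity minus the array's 75th percentile was computed, outlier spots were left out and spots of a probe averaged. A probe was kept if some group had it well above background on each of its 2 arrays (38115 probes, of which 24784 have a symbol), symbols being matched through transcript accessions to RefSeq, and the brightest probe stood for a gene (16935 genes). All 24 arrays were fitted as 12 group means with limma 3.58.1 in R 4.3.3, and the KO differences of the numbered and lettered slides were averaged, which blocks slide and scan day. P-values were adjusted by Benjamini-Hochberg over all genes, and the scripts were tested on simulated data. A dim gene's fold is a bound against the lowest signal well above background on each array. Promoter sequences and gene coordinates come from RefSeq (GRCm38.p6).

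The text names the Derlins, every gene called with all arrays, the 12 highest and 12 lowest called genes well above background on the 7 arrays, up to 4 members of each list or members that define a cell type or step, and every gene called for the difference of KO effects. Genes named for a promoter motif, the members not called among the chaperones, Slc7a11, Fgf21 and the genes called between slides were added after their values were seen. The members, the gene lists and the leaving out of the array labelled KO 4PBA b were chosen with earlier results of these data known. Alternatives were quantile normalization, normexp, other filters and probes, fewer arrays, a replicate block and leaving out each array. 1 result is not reported here.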

Additional observations from a re-analysis of the deposited data

Results flagged for a closer look

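Of 72 measures examined over the 4 KO arrays, 11 had a lowest or highest array whose gap to the nearest other, as a share of the whole range, exceeded Dixon's 95% critical value for 4 arrays. Chance flags about 1 in 20 groups. These measures share the same 4 arrays and are not independent of each other. The share was 0.848 for the median signed deviation over the genes called without 4PBA, 0.907 for the ATF4 and CHOP list and 0.93 for antigen presentation. It was 0.87 for Derl3, 0.842 for Gdf15, 0.849 for Cox6a2, 0.92 for Trib3, 0.91 for Slc7a3, 0.839 for Zcchc12, 0.896 for Eif4ebp1 and 0.908 for Sh3bgr. The array labelled KO 4PBA b is doubted because its expression lies with the controls, so that these shares restate that observation and are not further evidence of it. The 8 genes were also ranked in the fit that leaves out the array labelled KO 4PBA b, so that its distance from the other KO arrays in them follows in part from that choice.

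The KO effect with 4PBA minus that without it passed the test with all arrays for Gm28729 (1.88) and Olfr769 (1.78). Without the array labelled KO 4PBA b it passed for Gm28729 (1.86), Olfr769 (1.77), Obox5 (3.71), Gm29999 (1.53) and Cnih3 (1.31). The numbered minus the lettered KO effect without that array passed for Gm28729 (5.17), 4930452A19Rik (4.13), Scgb2b24 (-3.53), Tdpoz1 (-3.52), Tssk4 (-4.73) and Gm29999 (-2.48). All these genes but Cnih3 were not well above background on at least 1 array, so that the values are fitted differences and not measured folds. Gm28729, Olfr769, Obox5, 4930452A19Rik, Scgb2b24 and Tdpoz1 passed the filter on dim probes only through 1 group, in which they were high. For Olfr769 that was the numbered control with vehicle. A difference was thus built in for these 6 genes and their values support nothing. Obox5 was high on KO a as well, with -4.26 against -7.09 and -8.32 in the lettered controls.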

How the results depend on the processing

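With all arrays the 8 calls became 0 with normexp on median signals (chosen after seeing the files, since they hold no mean signal, so that the planned version was not run), 15 without the filter on dim probes, 1 among genes well above background on every array, 3 with only the 8 arrays with 4PBA and 14 with every probe; leaving out single arrays gave 8 to 1047, the latter without the array labelled KO 4PBA b. The numbered slide's 8 calls became 14 without the filter, 15 with the 16 Derlin-1 arrays, 293 with the doubted array out of the residual spread, and 43 to 67 without single arrays. The lettered slide's 4 calls became 0 with normexp, 9 without the filter, 2 with the 16 arrays and 3 to 236 without single arrays. For the difference of KO effects the 2 calls became 0 with normexp, 7 without the filter, 5 with every probe and 2 to 31 without single arrays, 31 without KO a. Without the array labelled KO 4PBA b the 1047 calls became 610 with the 16 arrays, 120 with the 4PBA arrays alone and 645 to 1068 without single arrays, and the 5 calls of the difference became 3 with quantile normalization, 0 with normexp, 11 without the filter and 0 to 10 without single arrays. The cause of these changes was not tested, beyond fewer genes or arrays where the setting has them. Leaving out KO a as well as the array labelled KO 4PBA b leaves no lettered KO sample, and no value was computed.

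Deviations of same-numbered samples correlated with -0.153 to 0.361 over the pairs of groups of the numbered slide and -0.0446 to 0.4 over those of the lettered slide (control and KO with 4PBA, 0.096 and 0.124); not every pair exceeded 0.1, so the numbers were not taken to pair samples. With the replicate block 11 genes were called with all arrays and 1023 without the array labelled KO 4PBA b, the 5 calls of the difference became 0, Olfr769 was at -0.0084 and the median of oligodendrocyte precursors at 0.0036.

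Values near 0 changed sign. With all arrays and quantile normalization Derl2 was at 0.0047 and the Purkinje median at 0.0036. Leaving out single arrays gave -0.61 to 0.025 for P2ry12, -0.13 to 0.070 for Derl2, -0.75 to 1.17 for Tssk4, -0.099 to 0.032 for Ero1a, -0.15 to 0.021 for the median of Purkinje cells, -0.085 to 0.18 for Olfr769, -0.13 to 1.42 for Gm29999 and -0.26 to 0.058 for Cnih3. Without the array labelled KO 4PBA b quantile normalization gave 0.016 for Derl2, -0.0025 for Cnih3, 0.0016 for Ero1a, and medians of 0.043 for Purkinje cells, 0.011 for oligodendrocyte precursors, 0.015 for fatty acid synthesis and 0.017 for heat shock, and normexp gave -0.074 for Olfr769. There, leaving out single arrays gave -0.50 to 0.14 for P2ry12, -0.12 to 0.074 for Derl2, -0.098 to 0.17 for Olfr769, -0.10 to 0.028 for Ero1a, -0.051 to 0.0022 for the median of oligodendrocyte precursors and -0.028 to 0.14 for Cnih3. Over the named genes and settings without that array, 1389 values kept direction and side of the threshold, 160 lost the call, 60 of them with the 4PBA arrays alone, 4 gained it and 13 changed sign. With all arrays Fzd5, Gm30993 and 1700065J11Rik lost the call without some single arrays. Dim probes limit these counts.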
